A study of Mus musculus with 4 samples.

Results

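The cytokines of the interleukin-6 (IL-6) family, their receptors and the signal transducer STAT3 were followed in phorone-exposed and unexposed transformed mouse fibroblasts. The members were 10 genes: the ligands Il6, Lif, Il11 and Clcf1, the receptor chains Il6ra, Il6st, Lifr and Osmr, the transcription factor Stat3 and the feedback inhibitor Socs3. They were taken as every non-control probe whose design name is one of these symbols, which gave 18 of the 40628 gene probes on the array and 10 of the 17033 genes tested. All 18 passed the filter on dim probes and entered the fit of 24207 gene probes. Of these, 17 were well above background on all 4 arrays, and 1 Lifr probe passed through its control arrays alone, since it was well above background on 1 of 2 phorone arrays.

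The tested cells were C3H10T1/2 mouse embryo fibroblasts that had been transformed chemically and then exposed to 2 mM phorone (n = 2 arrays), and the control cells were the same transformed line without phorone (n = 2 arrays). Both groups had received 3-methylcholanthrene, a carcinogenic polycyclic hydrocarbon, at 2.5 µg/ml for 2 days. After 4 days in plain medium, the phorbol ester TPA followed at 100 ng/ml for 2 weeks, and then 4 weeks without either agent. The vehicle and the length of the phorone exposure were not given in the sources used here. Total RNA was labelled with Cy3 and read on 1-colour Agilent arrays, and no label ties replicate arrays to different cultures. The p-values therefore measure how these samples vary, and that variation may be technical.

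IL-6 family cytokines act through receptor complexes that contain gp130, the protein encoded by Il6st. Ligand binding activates Janus kinases bound to the receptor chains, which phosphorylate STAT3, and phosphorylated STAT3 enters the nucleus and induces genes that include Socs3. The SOCS3 protein binds gp130 and shuts the kinases off. Fibroblasts are a known source of IL-6, LIF and IL-11 and respond to oncostatin M through OSMR. Arrays read mRNA, not the phosphorylation of STAT3.

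Values are log2 processed signals minus the 75th percentile of each array, called log2 levels here. A difference is the mean of the phorone arrays minus the mean of the control arrays on that log2 scale, with its standard error (SE) and 95% interval from limma. A probe was called where the Benjamini-Hochberg adjusted p over all 24207 gene probes was below 0.05. With phorone 45.8% of all gene probes were called, 20.3% lower and 25.5% higher, and the median difference over all of them was 0.11. The share of spots well above background ran from 51.1% to 52.7% over the arrays, saturation was absent, and the number of arrays limits the precision. All 9 fibroblast markers passed the filter. The log2 of their summed linear levels, which the brightest genes dominate, was 9.42 and 9.50 on the phorone arrays, against 10.6 and 10.6 on the control arrays. By the brightest probe of each gene, 5 of these markers were called lower and the other 4 were not called. Among those 4, Col1a1 (-0.30) had 2 other probes, both called lower (-2.21 and -1.44). Pdgfra and Col3a1, both among the 5 lower markers, had differences of -2.98 and -3.38. Of 8 listed macrophage markers 4 passed, with 1 lower and 1 higher. The log2 of their summed linear levels was 2.31 and 2.32 on the phorone arrays, against 2.04 and 2.30 on the control arrays. The defining markers Ptprc, Epcam, Cdh1, Pecam1 and Cdh5 of blood cells, epithelium and endothelium did not pass. Each group had a slide row of its own, which cannot be told apart from the treatment.

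Phorone-exposed cells had less Socs3, Osmr, Lifr, Il6, Il11 and Stat3 mRNA and more Clcf1 mRNA than control cells. Of the 18 member probes 11 were called lower (against 20.3% of all gene probes) and 1 higher (against 25.5%), and the other 6 were not called. The 11 include 1 Lifr probe that passed the filter through its control arrays alone, so its call is no support. By the brightest probe of each gene, 6 of 10 genes were lower and 1 higher, against 21.0% and 23.8% of all 17033 genes, of which 44.9% were called either way. The median difference over the 18 probes was -0.63. Phorone and control arrays did not overlap for 16 probes, of which 15 were lower and 1 higher in phorone cells, against 32.9% and 45.0% of all gene probes. Scaling on the spike-in RNAs moved every difference up by 0.43, including the median over all gene probes, which stood at 0.54. It moved each array by its own amount, so the gaps between replicate arrays and the SE changed too. Under it 3 member probes stayed lower and 1 higher, against 1611 and 4453 of all 24207 gene probes. These members were Socs3, 2 Lifr probes and Clcf1, and 1 of the 2 Lifr probes passed the filter through its control arrays alone. Relative to the all-probe median the members' differences were the same in both scalings. In these bulk samples fewer cells of a type and less RNA per cell cannot be told apart.

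**Figure D1:**
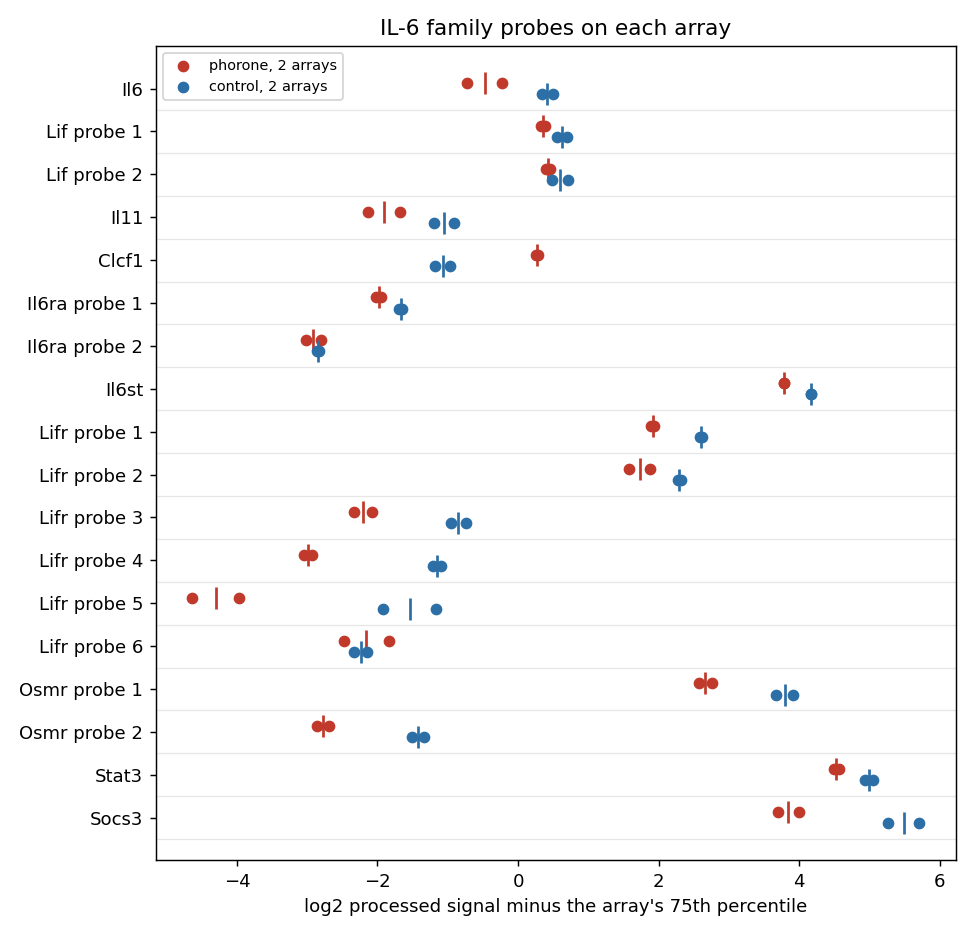
Log2 level (processed signal minus the 75th percentile of the array, horizontal axis) of the 18 IL-6 family probes on each array, with phorone arrays in red above control arrays in blue and a tick at each mean of 2 arrays. The red points lie left of the blue ones for 15 probes and right of them for Clcf1, while Il6ra probe 2 and Lifr probe 6 overlap.

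Il6 encodes interleukin-6, the inflammatory cytokine that names the family. Its log2 level was -0.72 and -0.23 on the phorone arrays, against 0.50 and 0.34 on the control arrays. Both phorone arrays lay below both control arrays, and the phorone arrays were further apart than the control arrays. Il6 (RefSeq NM_031168, chromosome 5) fell by 0.89 (SE 0.20, 95% interval -1.41 to -0.37, limma adjusted p = 0.0206), which is 1.86-fold lower. This call was lost when either control array or phorone replicate 1 was left out, with differences of -0.81, -0.98 and -0.64, and under spike-in scaling (-0.46). It was also lost when dim probes were kept in the fit (adjusted p = 0.0694). Without phorone replicate 2 Il6 stayed called, at -1.14.

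The Il6 promoter is known for sites of NF-kB, AP-1 and C/EBP factors, and the 250 bases before its RefSeq start are shown because letters of all 3 motifs occur in them. The sequence is from RefSeq (GRCm38.p6, chr5:30012864-30013113, plus strand, 5′ to 3′), and capitals mark the 3 matches.
Il6: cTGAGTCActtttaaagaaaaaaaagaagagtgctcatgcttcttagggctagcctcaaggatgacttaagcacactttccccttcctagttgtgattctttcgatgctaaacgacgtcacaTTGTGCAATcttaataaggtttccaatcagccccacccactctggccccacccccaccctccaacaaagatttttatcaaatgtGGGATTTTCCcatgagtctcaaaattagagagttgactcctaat
From left to right these are TGANTCA for AP-1, TTNNGCAAT for C/EBP and the NF-kB motif, searched on both strands and not overlapping each other. They begin 249, 128 and 44 bases before the start. Of all 32851 promoter windows of this length, 6.75% hold the AP-1 letters, 1.93% the C/EBP letters and 1.41% the NF-kB letters. Windows were given for 9 of the 10 members, with 2 each for Il11 and Lifr, and Clcf1 had no entry. Besides Il6, the AP-1 letters occurred in a window of Il11 (98 bases before the start) and in that of Lif (228 bases before). The letters TGACNNNGC of the antioxidant response element, the site of NRF2, occurred in windows of Lif and Lifr, against 10.2% of all windows. A match of letters is a description and not a binding site.

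Il11 encodes interleukin-11, a ligand that TGF-beta induces in fibroblasts. It stood at -2.13 and -1.68 on the phorone arrays, against -1.20 and -0.91 on the control arrays. The groups did not overlap, with a gap between replicates of the same order in each. Il11 (NM_008350, chromosome 7) fell by 0.85 (SE 0.21, interval -1.38 to -0.32, limma adjusted p = 0.0245), or 1.80-fold. Leaving out control replicate 2 (-0.71) or phorone replicate 1 (-0.63) ended the call, as did spike-in scaling (-0.42) and a fit with no filter on dim probes (adjusted p = 0.0786).

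Lif encodes leukaemia inhibitory factor, which keeps mouse embryonic stem cells pluripotent. It had 2 probes, designed on transcript variants 1 (NM_008501) and 2 (NM_001039537) but with the same sequence over all 60 bases, so they are 2 spots of a single probe and tell no variants apart. Their log2 levels differed by 0.017 to 0.072 within an array, a measure of spot-to-spot error. Probe 1 stood at 0.38 and 0.33 on the phorone arrays, against 0.70 and 0.55 on the control arrays. Probe 2 stood at 0.45 and 0.40 on the phorone arrays, against 0.71 and 0.49 on the control arrays. All 4 phorone spots lay below the 4 control spots, but neither difference passed the test: -0.27 (interval -0.60 to 0.06, limma adjusted p = 0.147) and -0.18 (interval -0.54 to 0.18, adjusted p = 0.346). The intervals leave room for a fall of up to 0.60 and for a small rise, and under spike-in scaling both values were above 0 (0.17 and 0.26).

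Clcf1 was the member that rose. It encodes cardiotrophin-like cytokine factor 1, a ligand that binds the ciliary neurotrophic factor receptor. Its log2 level was 0.25 and 0.28 on the phorone arrays, against -1.18 and -0.96 on the control arrays. The phorone arrays were nearly equal and both lay above both control arrays. Clcf1 (NM_019952, chromosome 19) rose by 1.34 (SE 0.14, interval 0.98 to 1.69, limma adjusted p = 0.00234), which is 2.53-fold. It stayed called in every alternative run, from 1.22 with normexp background correction to 1.77 under spike-in scaling. Its 60-base probe, shown because the rise rests on this 1 sequence, has no stop codon in 2 of its 3 forward frames.
Clcf1 probe: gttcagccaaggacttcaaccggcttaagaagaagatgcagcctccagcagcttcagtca

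Among the receptor chains, those for oncostatin M and LIF were lower in phorone cells, whereas gp130 and the IL-6 receptor were not called. Osmr encodes the oncostatin M receptor chain that pairs with gp130. Its probe 1 stood at 2.76 and 2.57 on the phorone arrays, against 3.92 and 3.67 on the control arrays. Its probe 2 stood at -2.86 and -2.69 on the phorone arrays, against -1.34 and -1.51 on the control arrays. On both probes the groups were separated by several times the gap between replicates. Osmr (NM_011019, chromosome 15) fell by 1.13 on probe 1 (SE 0.16, interval -1.52 to -0.73, limma adjusted p = 0.00489) and by 1.35 on probe 2 (SE 0.14, interval -1.71 to -0.98, adjusted p = 0.00246). Both calls held with any 1 array left out, and both were lost under spike-in scaling (-0.69 and -0.91).

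Lifr encodes the LIF receptor chain, which pairs with gp130 for LIF, cardiotrophin and Clcf1 signals. Osmr and Lifr are neighbours on chromosome 15, with 0 protein-coding genes between them in RefSeq. The array held 6 Lifr probes, numbered here by their level in control cells as labels that rank nothing. Of these, 5 were called lower and 1 was not called, and their differences ran from -2.76 to 0.08 with a median of -1.02. Among the 5, probe 5 passed the filter through its control arrays alone.

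Lifr probe 1 (NM_013584) stood at 1.94 and 1.90 on the phorone arrays, against 2.61 and 2.59 on the control arrays. Lifr probe 2, designed on transcript variant 2 (NM_001113386), stood at 1.88 and 1.58 on the phorone arrays, against 2.28 and 2.32 on the control arrays. Lifr probe 3 stood at -2.08 and -2.34 on the phorone arrays, against -0.96 and -0.74 on the control arrays. These 3 probes had no overlap between groups and fell by 0.68, 0.57 and 1.36 (limma adjusted p = 0.00998, 0.0329 and 0.00325). Lifr probe 4 stood at -3.05 and -2.93 on the phorone arrays, against -1.22 and -1.09 on the control arrays. Lifr probe 5 stood at -4.64 and -3.97 on the phorone arrays, against -1.17 and -1.92 on the control arrays. These 2 fell furthest, by 1.84 (SE 0.13, limma adjusted p = 0.000959) and 2.76 (SE 0.34, adjusted p = 0.00363). Probe 5 was not well above background on phorone replicate 1, so its size is uncertain. It passed the filter through its control arrays alone, where it was high, so its adjusted p is no support. Lifr probe 6 stood at -1.84 and -2.47 on the phorone arrays, against -2.14 and -2.33 on the control arrays. Its groups overlapped, and its difference of 0.08 (interval -0.53 to 0.69) was not called (adjusted p = 0.802).

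The intervals of probe 1 (-0.99 to -0.37) and probe 4 (-2.17 to -1.50) did not overlap, though both probes were designed on NM_013584. The difference between probes was not tested. Both sequences are shown because the size of the Lifr fall depends on which of them is read, and each has 1 forward frame without a stop codon.
Lifr probe 1: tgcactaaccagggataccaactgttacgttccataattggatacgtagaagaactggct
Lifr probe 4: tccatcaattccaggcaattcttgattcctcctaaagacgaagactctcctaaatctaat
Under spike-in scaling probes 4 and 5 stayed called (-1.40 and -2.32), and probes 1, 2 and 3 did not (-0.25, -0.13 and -0.92). Probe 1 lost its call without phorone replicate 2 (-0.66), and probe 2 lost it without control replicate 1 (-0.59), control replicate 2 (-0.55) or phorone replicate 2 (-0.42), with no filter on dim probes (adjusted p = 0.0941) and with the replicate number as a block (adjusted p = 0.0549). Normexp correction, with an offset of 50 added to every signal, gave -1.16 and -1.35 for probes 4 and 5, both called.

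Il6st encodes gp130, the chain shared by the whole family. It stood at 3.78 and 3.78 on the phorone arrays, against 4.16 and 4.17 on the control arrays. Replicates were almost identical and the groups did not overlap. Its difference of -0.38 (SE 0.12, interval -0.69 to -0.07, NM_010560, chromosome 13) lay just past the threshold at limma adjusted p = 0.0534, so it was not called. It was called lower in 5 alternatives: quantile normalization (adjusted p = 0.0343), normexp (0.0225), above background required on all 4 arrays (0.0453), the brightest probe per gene (0.0493) and the mean of the probes of a gene (0.0470). It stood at 0.055 under spike-in scaling.

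Il6ra encodes the IL-6 binding chain, which makes a cell responsive to IL-6 itself. Its probe 1 stood at -1.95 and -2.02 on the phorone arrays, against -1.70 and -1.64 on the control arrays. Its probe 2 stood at -2.80 and -3.02 on the phorone arrays, against -2.85 and -2.83 on the control arrays. The groups were apart on probe 1 and overlapped on probe 2, and neither difference was called: -0.31 (interval -0.63 to 0.0050, limma adjusted p = 0.0945) and -0.068 (interval -0.42 to 0.29, adjusted p = 0.712). Both probes were designed on NM_010559 (chromosome 3), and their sequences are shown because the 2 spots read different stretches of this transcript.
Il6ra probe 1: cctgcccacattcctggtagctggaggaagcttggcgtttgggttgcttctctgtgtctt
Il6ra probe 2: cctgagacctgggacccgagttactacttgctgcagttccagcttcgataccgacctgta
Under spike-in scaling both values were above 0 (0.12 and 0.37).

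**Figure D2:**
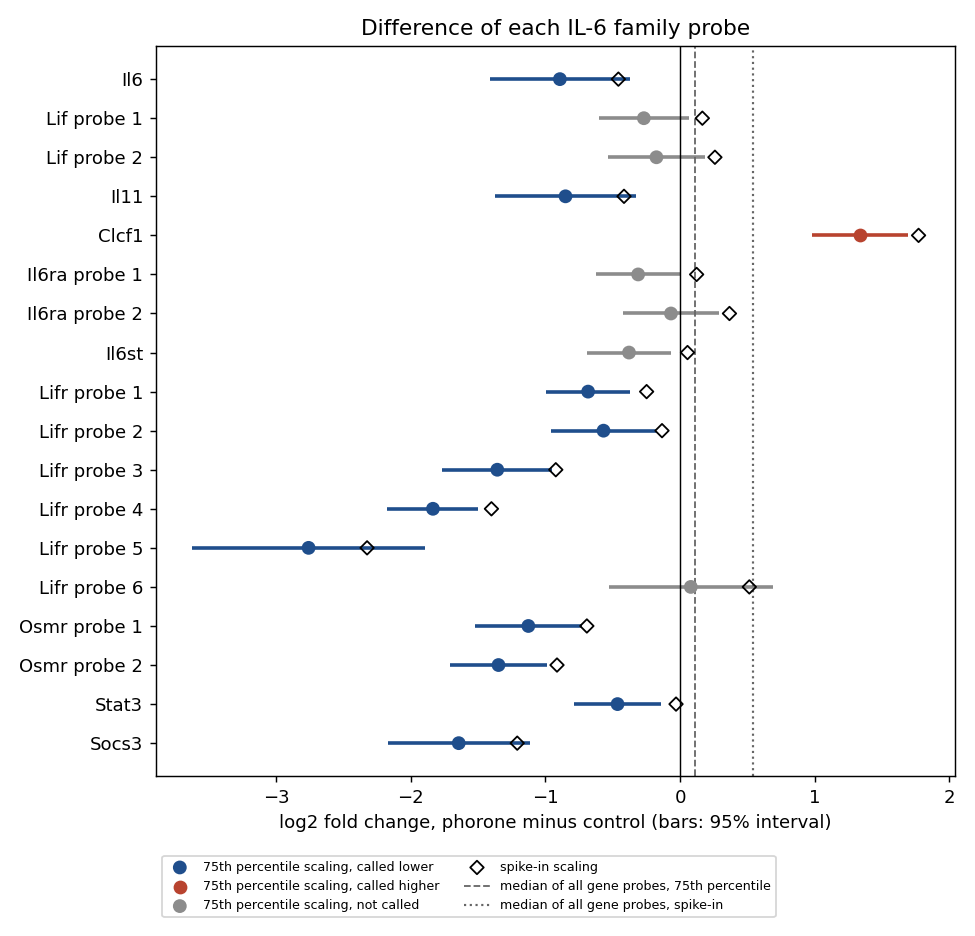
Difference of each of the 18 probes (log2, phorone minus control) with its 95% limma interval, blue where called lower, red where called higher and grey where not called, and as open diamonds under spike-in scaling. The dashed and dotted lines mark the median of all gene probes in the 2 scalings (0.11 and 0.54), and every member except Clcf1 and Lifr probe 6 lies left of 0 with the 75th percentile. Under spike-in scaling the Lif, Il6ra and Il6st probes lie right of 0.

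Stat3 encodes the transcription factor on which the family's signals converge. It stood at 4.50 and 4.56 on the phorone arrays, against 4.94 and 5.05 on the control arrays. The groups did not overlap, and the step was small. Stat3 (NM_213659, chromosome 11) fell by 0.46 (SE 0.13, interval -0.79 to -0.14, limma adjusted p = 0.0351), or 1.38-fold. The call was lost without control replicate 2 (-0.41), phorone replicate 1 (-0.43) or phorone replicate 2 (-0.50), with no filter on dim probes (adjusted p = 0.0950) and with the replicate number as a block (adjusted p = 0.0745). The difference was -0.030 under spike-in scaling. Its probe is assigned to 3 transcripts in the design, so variants of Stat3 cannot be told apart.

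Socs3 showed the largest fall among the members read by 1 probe. Its processed signal was 8985 and 7405 on the phorone arrays, against 27027 and 39065 on the control arrays. On the scaled log2 level these were 4.00 and 3.69 on the phorone arrays, against 5.27 and 5.71 on the control arrays. The groups lay far apart compared with the gap between replicates. Socs3 (NM_007707, chromosome 11) fell by 1.64 (SE 0.21, interval -2.17 to -1.12, limma adjusted p = 0.00386), which is 3.12-fold lower. It stayed called with any 1 array left out, from -1.86 to -1.42, and under spike-in scaling (-1.21, adjusted p = 0.0348).

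The 250 bases before the RefSeq start of Socs3 are shown because Socs3 was the member whose window holds the letters TTCNNNGAA, the core of STAT sites. The sequence is from RefSeq (GRCm38.p6, chr11:117969367-117969616, minus strand, 5′ to 3′), and capitals mark the match, which begins 154 bases before the start.
Socs3: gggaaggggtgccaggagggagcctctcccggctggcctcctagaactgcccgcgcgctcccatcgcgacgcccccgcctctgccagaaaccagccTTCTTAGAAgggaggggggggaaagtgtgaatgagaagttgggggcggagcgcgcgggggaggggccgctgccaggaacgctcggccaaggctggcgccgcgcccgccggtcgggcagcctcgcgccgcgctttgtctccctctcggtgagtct
These letters occur in 7.02% of all promoter windows of this length on either strand, and in 1 of the 11 windows of the members.

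Genes with the pattern most like a member were sought by the Euclidean distance of their 4 log2 levels after subtracting the mean of each gene, over the 4 arrays and 15699 genes above background on all of them. Nearest to Il6 were Rrm2 (distance 0.059) and LOC631094 (0.087). Nearest to Il6st were Phykpl (0.012) and Septin2 (0.013). Nearest to Socs3 were Gm8144 (0.016) and Creb3l1 (0.049).

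Of 7 other listed ligands 3 were measured, of which 1 was higher and 2 were not called, against 23.8% higher and 21.0% lower over all genes. Their median difference of 0.35, against 0.08 over all genes, is the value of 1 gene that was not called. Cntf, ciliary neurotrophic factor, stood at 1.76 and 1.89 on the phorone arrays, against 1.01 and 1.10 on the control arrays. It rose by 0.77 (SE 0.13, limma adjusted p = 0.00851), with 0.027 on another probe, not called. Without phorone replicate 2 it was not called (0.71), nor was it with the mean of the probes of a gene. Osm, the ligand of Osmr and the neighbour of Lif on chromosome 11, did not pass the filter, nor did Ctf2, Ebi3 and Il31.

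Of 5 other receptor chains 2 were measured, and 1 of them was above background on all 4 arrays. Cntfr, the chain of the ciliary neurotrophic factor receptor, did not pass the filter, nor did Il27ra, and no probe carried the name Il11ra2. Il11ra1, the binding chain for IL-11, stood at 5.25 and 5.21 on the phorone arrays, against 6.57 and 6.53 on the control arrays. It fell by 1.32 (SE 0.12, limma adjusted p = 0.00176) and by 1.50 on its other probe. Il11ra2 is a close copy of this gene, so the signal may be shared. Under spike-in scaling Il11ra1 was not called (-0.88). Il31ra, a receptor related to gp130, passed the filter through the control arrays and had to be lower. Its limma adjusted p of 0.00443 is therefore no support, and with normexp correction it was not called (-0.31). Not well above background in phorone cells, Il31ra was at least 1.03-fold lower. That bound sets its control mean against, per array, the higher of its own value and the lowest signal among probes well above background.

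Of 8 measured Janus kinases and other STATs, 2 were lower, 1 higher and 5 not called (median difference -0.20), against 21.0% lower and 23.8% higher over all genes. Stat2, an interferon STAT, stood at 1.34 and 1.01 on the phorone arrays, against 2.14 and 1.71 on the control arrays. It fell by 0.75 (SE 0.21, limma adjusted p = 0.0364). Jak3, a kinase mainly of lymphocytes, fell by 1.10 (adjusted p = 0.0114) and by 1.78 on its other probe. Jak2, which serves several cytokine receptors, rose by 0.72 (adjusted p = 0.0226), with 0.25 on another probe, not called. It lost the call without control replicate 2 (0.54), without phorone replicate 2 (0.66) and when dim probes were kept in the fit (adjusted p = 0.0726). Jak1, the kinase on which gp130 mainly depends, had a difference of 0.074 (interval -0.24 to 0.39, adjusted p = 0.645). On these brightest probes Stat2 and Jak3 lost their calls under spike-in scaling (-0.31 and -0.67), and Stat2 also without control replicate 1 (-0.54), without phorone replicate 2 (-0.58) and when dim probes were kept (adjusted p = 0.106).

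Of 16 measured negative regulators 4 were lower, 3 higher and 9 not called (median difference -0.12), shares near the 21.0% and 23.8% of all genes. The SOCS relatives Socs2 and Cish, which mainly restrain STAT5 signals, fell by 1.94 (SE 0.16, limma adjusted p = 0.00133) and 1.25 (SE 0.16, adjusted p = 0.00402). Socs2 stood at 0.59 and 0.31 on the phorone arrays, against 2.30 and 2.48 on the control arrays. Ptpn6, a phosphatase of blood cells, fell by 1.55 (adjusted p = 0.00329), with -0.079 on another probe, not called. Socs1, named after its value was seen, fell by 1.17 (SE 0.12, adjusted p = 0.00252). In the other direction Socs6 rose by 0.82 (adjusted p = 0.0112). Socs7, not well above background in control cells, was at least 2.85-fold higher. It passed the filter through the phorone arrays and had to be higher, so its adjusted p of 0.00473 is no support. With above background required on all 4 arrays 4 regulators were lower and 2 higher, against 4447 and 6317 of 22220 gene probes. Pias2 rose by 0.69 on its brightest probe (adjusted p = 0.0212), but of its other 3 probes 1 was called lower (-1.01) and 1 higher (0.94). Pias2 was not called when either phorone array was left out (0.68 and 0.70), and Socs6 not without phorone replicate 2 (0.73). Under spike-in scaling 1 regulator was lower and 2 higher, against 1611 and 4453 of all 24207 gene probes.

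Of 20 measured genes in a list of known STAT3 targets, 11 were lower, 3 higher and 6 not called (against 21.0% and 23.8% of all genes), with a median difference of -0.52, or -0.50 with genes at their bound. Of the 11, Lcn2, Saa3, Hp and Lrg1 passed the filter through the control arrays and had to be lower. Neither the count nor the adjusted p of these genes is therefore support for the list. With above background required on all 4 arrays 8 were lower and 3 higher, against 4447 and 6317 of 22220 gene probes. Many of these genes also answer to NF-kB or C/EBP factors. Lcn2 (lipocalin 2) stood at -6.998 and -6.691 on the phorone arrays, where it was not well above background, against -0.70 and 0.08 on the control arrays, and was at least 20.6-fold lower (limma adjusted p = 0.000361). Hp (haptoglobin) was at least 12.7-fold lower and Saa3 (serum amyloid A3) at least 8.76-fold lower (adjusted p = 0.00115 and 0.00188), both not well above background in phorone cells. Lrg1, named after its value was seen, was at least 1.44-fold lower. Cebpd, Lbp and Ccnd1, named after their values were seen, fell by 2.22, 2.67 and 2.03. Myc, a growth-promoting transcription factor, stood at 2.82 and 2.79 on the phorone arrays, against 2.16 and 1.54 on the control arrays. It rose by 0.95 (SE 0.23, adjusted p = 0.0243), the kinase gene Pim1 by 0.89 (adjusted p = 0.0105) and Timp1, an inhibitor of matrix proteases, by 0.62 (adjusted p = 0.0140). Timp1 was not called when either phorone array was left out (0.62 each), and Myc not with no filter on dim probes (adjusted p = 0.0791). Under spike-in scaling 7 targets were lower and 2 higher, against 1611 and 4453 of all 24207 gene probes. The 7 include Lcn2, Saa3 and Hp, which had to be lower. Fibroblast markers were lower in the same arrays, as given above, and their part in these results was not tested.

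**Figure D3:**
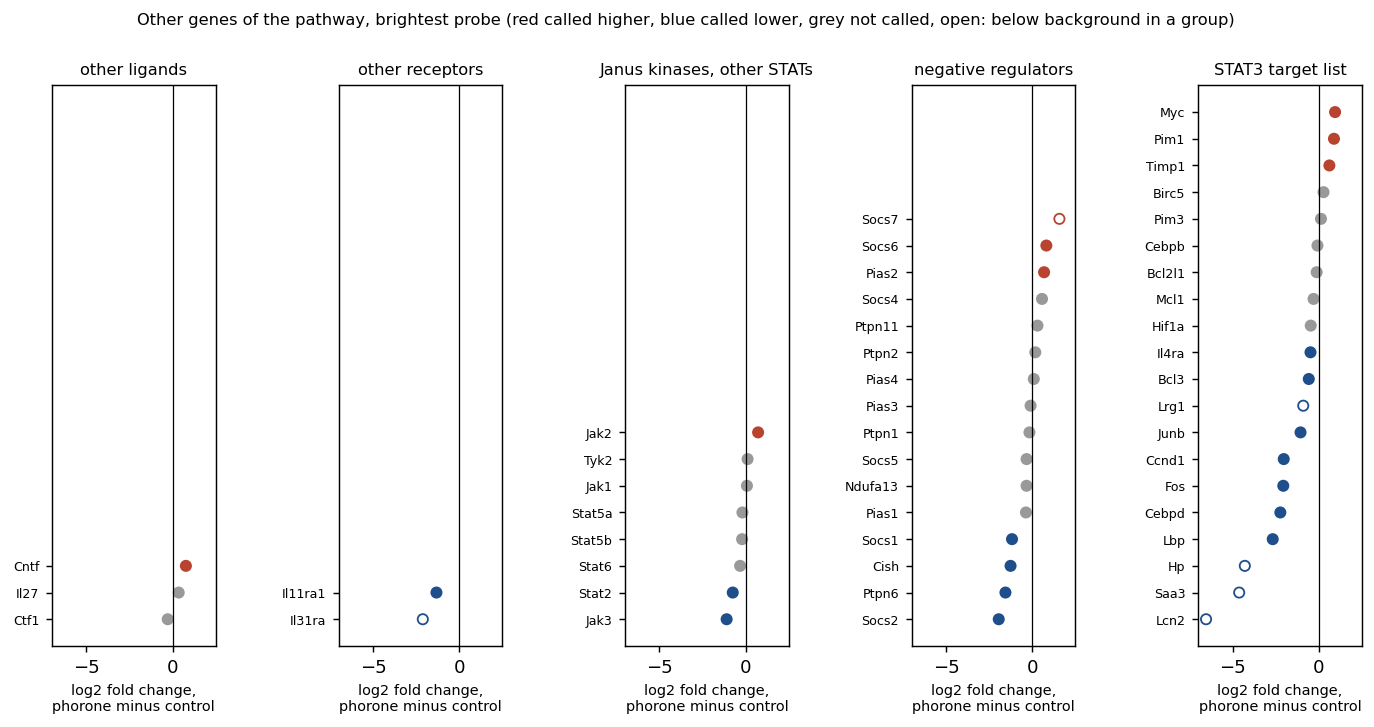
Difference (log2, phorone minus control) of the brightest probe of each measured gene in 5 lists of the pathway, red where called higher, blue where called lower, grey where not called and open where a group was not well above background. The STAT3 target list reaches furthest to the left, at Lcn2, Saa3 and Hp, which were not well above background in phorone cells. In it 11 of 20 genes were called lower, against 21.0% of all genes. Of these, Lcn2, Saa3, Hp and Lrg1 passed the filter through the control arrays and had to be lower.

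**Figure D4:**
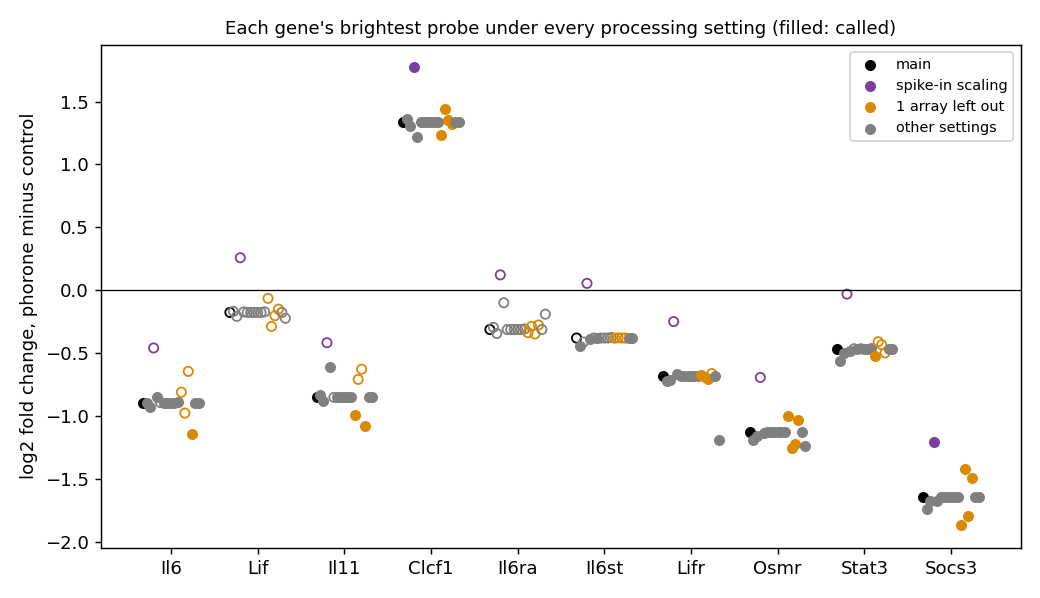
Difference (log2, phorone minus control) of the brightest probe of each member under each processing setting, filled where called, with the main setting in black, spike-in scaling in purple, fits with 1 array left out in orange and other settings in grey. Clcf1 and Socs3 stay filled in every setting, while the purple points of Lif, Il6ra and Il6st lie above 0.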

How the data were processed

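Total RNA of 4 samples, 2 phorone and 2 control, was read on 1 slide in 1 scan. The authors deposited Agilent Feature Extraction 10.7.3.1 output, in which the processed intensity had, per the file headers, background subtraction, detrending and surrogates for dim spots, with no normalization between arrays. The authors' deposited table of log2 values equals the log2 processed signal minus 1 number per array (SD at most 0.022), at about the 75th percentile, and has column medians of -4.37 and -4.30 for phorone and -4.39 and -4.35 for control.

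Log2 processed signals minus each array's 75th percentile (non-control probes) were averaged per probe. Spots with outlier flags were left out (111 probes lost). Gene probes for which both arrays of either group were well above background were fitted with limma 3.58.1 in R 4.3.3 (two-sided, 2 residual and 3.08 prior degrees of freedom). RefSeq accessions matched 69.3% of gene probes. Members and lists were chosen with earlier results of these data known, and some genes of the pathway lists are not reported here. Named by rule were all member probes, up to 3 called genes each way per list, and the 2 genes nearest to Il6, Il6st and Socs3. Of the measured pathway genes, Jak1, Socs1, Lrg1, Cebpd, Lbp, Fos and Ccnd1 were named beyond this rule.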

Additional observations from a re-analysis of the deposited data

How the results depend on the processing

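Over 271 comparisons of a member probe with its value under an alternative, 231 kept their direction and side of the threshold, 26 lost the call, 5 gained it and 9 turned direction. The main fit called 11 member probes lower, 6 member genes lower, 19 pathway genes lower and 8 higher, and of all gene probes 4919 lower and 6168 higher. Spike-in scaling gave 3 member probes, 1 member gene, 9 pathway genes and 1611 gene probes lower. It moves every difference by the same 0.43 but each array by its own amount, so the gaps between replicates and the error change too. Osmr probe 2, for example, had a limma adjusted p of 0.122 at -0.91. With no filter on dim probes 7 member probes and 3 member genes were lower, 5 pathway genes higher and 3823 gene probes higher. With 1 array left out, the fit assumes that the lone array varies like the other group: 7 to 9 member probes and 3 to 5 member genes were lower, 3 to 9 pathway genes higher and 15 to 19 lower, 3502 to 5819 gene probes higher and 3599 to 4751 lower, and 1 member gene higher in each. Member genes lower numbered 3 without control replicate 2 or phorone replicate 1, and pathway genes higher numbered 3 without phorone replicate 2. Values that turned were those of probes not called: under spike-in scaling Lif (0.17 and 0.26), Il6ra (0.12 and 0.37) and Il6st (0.055), and Il6ra probe 2 with normexp (0.098). With 1 array left out, Il6ra probe 2 ran from -0.18 to 0.043 (above 0 without phorone replicate 2) and Lifr probe 6 from -0.23 to 0.39 (below 0 without control replicate 2 or phorone replicate 1). The cause was not tested. Deviations of same-numbered arrays correlated at -0.041, so no effect shared by replicate number was seen. This cannot decide whether the samples were paired, which the labels do not say. With the replicate block 9 member probes were lower and 1 higher, 5 member genes lower, and Stat3 and Lifr probe 2 were not called. Member probe counts could not be given where a gene had 1 value. Probes near background, such as Lifr probe 5, are limited by signal.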
